A study of Mus musculus with 2 samples.

Results

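Ghrelin, somatostatin and the other gut hormone genes were followed in the 2 libraries of a study of histamine-making cells of the mouse stomach. The members are 9 genes of peptide hormone precursors (Ghrl, Nucb2, Sst, Gcg, Pyy, Iapp, Gip, Sct and Gast) and Mboat4, the gene of the ghrelin acyltransferase. They were taken by name, and all 10 were found among the 37681 gene identifiers of the count files. Both libraries came from epithelium of the stomach corpus, the acid-secreting body of the organ, of C57BL/6 mice carrying an Hdc-CFP transgene, in which a cyan fluorescent protein reports Hdc. Hdc encodes histidine decarboxylase, the enzyme that makes histamine. One library was made from Hdc-CFP-positive cells isolated by flow sorting (the sorted library), and the other from corpus epithelium from which such cells had been depleted (the depleted library). The control cells therefore carried the transgene too. The sources used here do not give age, sex, the number of mice or how the transgene was built.

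The corpus epithelium holds several endocrine cell types, each known by its main product. Enterochromaffin-like (ECL) cells make histamine, X/A-like cells make ghrelin and D cells make somatostatin, while gastrin is a product of antral G cells and proglucagon, peptide YY, GIP and secretin are best known from the intestine. Ghrelin stimulates growth hormone release and appetite and acts on its receptor only after the acyltransferase has attached a fatty acid to it. Somatostatin restrains acid secretion, in part by acting on ECL cells. The hormone genes therefore tell which endocrine RNAs besides that of the histamine cells each library held.

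Each group held 1 library, so the differences below lack a replicate check and carry no p-value. The statements compare these libraries, not the cell populations in general. Gene counts summed to 10736538 in the sorted library and to 50928524 in the depleted one. Levels are in normalised CPM, that is, counts divided by the library total times its trimmed-mean (TMM) factor, on a per-million basis, and a fold is the ratio of the level in the sorted library to that in the depleted library. Brackets hold exact 95% intervals, which cover counting error only. A gene was called higher or lower where it had at least 10 counts in at least 1 library, a fold of at least 2 and an interval clear of 1. In such bulk RNA, fewer cells of a type and less RNA per cell cannot be told apart. The label of the sort was met by Hdc itself, with 106553 sorted-library counts against 951.

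All 10 members had at least 10 counts in at least 1 library. Of these, 8 were higher in the sorted library, 0 were lower and 2 (Gip and Sct) were called neither way. By the same rule 21.9% of all 16682 measured genes were higher and 21.9% were lower. The median log2 fold of the members was 2.42, beside -0.05 over all measured genes. With intervals required to end beyond 2-fold, 6 members were higher and 0 lower, against 18.1% and 17.0% of all measured genes, and with a fold of at least 4 the counts were 5 and 0, against 13.8% and 12.0%. The folds covered a wide range, from 0.369 for Gip to 435 for Pyy. Ghrl and Sst lay close to each other near the middle of that range, while Mboat4 and Pyy lay beside the chromogranin genes. The place of Pyy is imprecise, since it rests on 1 count in the depleted library.

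**Figure D1:**
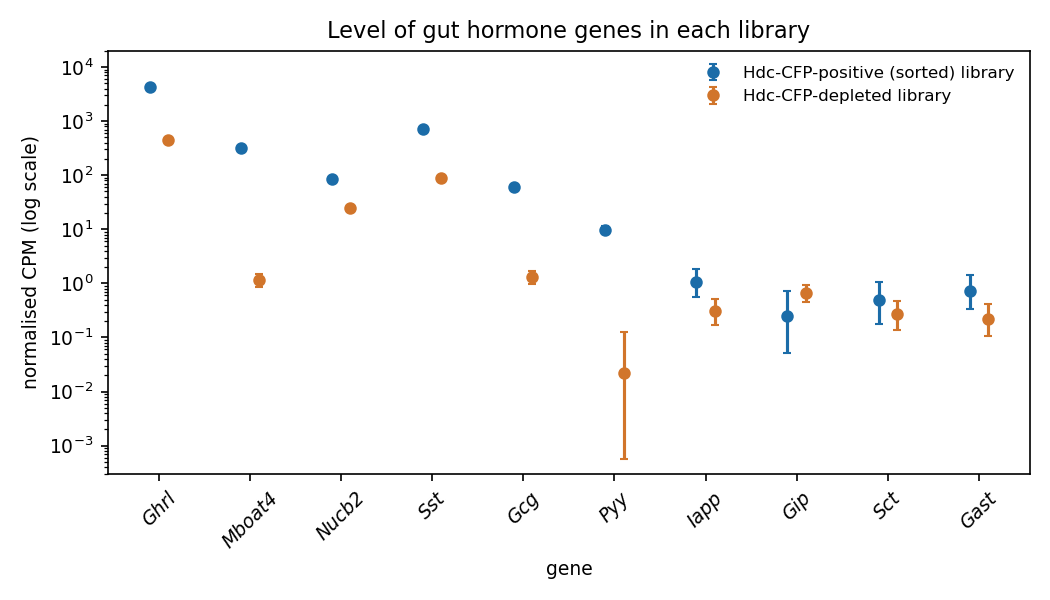
Level of the 10 genes in each library as normalised CPM on a log scale, sorted library in blue and depleted library in orange, with bars for the exact 95% Poisson interval (counting error only; hidden by the point where narrow). Ghrl and Sst are the most abundant in both libraries, and the intervals of Iapp, Gip, Sct and Gast reach far because they rest on 3 to 30 counts.

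Ghrl (ENSMUSG00000064177) encodes preproghrelin. In GRCm38 it lies on the minus strand of chromosome 6, from 113716119 to 113719880. It had 52948 counts in the sorted library against 20449 in the depleted library, or 4348 [4311 to 4385] and 455 [449 to 462] normalised CPM. Ghrl was thus abundant in both libraries, with rank 9 among all genes by count, with no length scaling, in the sorted library and 223 in the depleted one. Its fold was 9.55 [9.39 to 9.70]. Sst (ENSMUSG00000004366), the somatostatin gene, lies on the minus strand of chromosome 16 from 23889573 to 23890958. It had 8651 counts in the sorted library against 3907 in the depleted library, ranking 77 and 2488. Its levels were 710 [696 to 726] and 87.0 [84.3 to 89.8] normalised CPM, and its fold was 8.17 [7.86 to 8.48]. The intervals of the Ghrl and Sst folds did not overlap, but the folds themselves were near each other beside the range of the other members.

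Promoter windows of Ghrl, Sst and Gcg are shown. Ghrl and Sst made up most of the hormone RNA in both libraries, and the fold of Gcg lay apart from theirs. Each window runs from 250 bases before to 50 bases after a gene start of RefSeq (GRCm38.p6), 5′ to 3′ on the gene's strand. A window was listed for 9 of the 10 members. Ghrl has 4 windows and Pyy 2, and only the first listed window of each gene was searched. The Ghrl window shown lies inside the annotated gene, whose 5′ end is at 113719880. Those of Sst and Gcg span the 5′ ends of their genes. Capitals mark matches on either strand to the TATA box letters TATAAA, the cAMP response element TGACGTCA or the homeodomain core TAATTA, which do not overlap in these windows.
Ghrl, chr6:113717643-113717942, minus strand: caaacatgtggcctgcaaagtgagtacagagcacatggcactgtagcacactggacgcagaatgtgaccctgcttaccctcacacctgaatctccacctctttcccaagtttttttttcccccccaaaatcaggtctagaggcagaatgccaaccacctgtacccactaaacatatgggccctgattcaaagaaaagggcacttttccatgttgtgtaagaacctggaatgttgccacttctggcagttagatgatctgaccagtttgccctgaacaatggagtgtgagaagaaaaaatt
Sst, chr16:23890795-23891094, minus strand: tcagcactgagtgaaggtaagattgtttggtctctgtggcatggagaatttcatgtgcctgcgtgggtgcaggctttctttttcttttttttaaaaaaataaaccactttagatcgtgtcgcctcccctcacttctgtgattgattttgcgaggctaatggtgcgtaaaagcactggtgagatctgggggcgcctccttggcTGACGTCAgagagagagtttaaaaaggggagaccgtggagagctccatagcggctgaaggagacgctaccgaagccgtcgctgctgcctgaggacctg
Gcg, chr2:62483604-62483903, minus strand: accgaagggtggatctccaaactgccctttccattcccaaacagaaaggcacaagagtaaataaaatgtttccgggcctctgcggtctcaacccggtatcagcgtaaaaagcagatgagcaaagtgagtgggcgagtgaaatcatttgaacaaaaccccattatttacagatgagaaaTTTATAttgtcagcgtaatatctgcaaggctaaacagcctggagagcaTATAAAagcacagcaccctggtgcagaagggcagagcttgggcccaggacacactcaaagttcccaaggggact
The Sst window held 1 match to TGACGTCA, which begins 48 bases before the start. The first listed windows of the other 8 members held 0. This element, through which cAMP acts on somatostatin transcription, was found in 1.79% of all 32851 windows, which include more than 1 for some genes. The Gcg window held 2 matches to TATAAA, and the windows of Sct and Gast held 1 each, while 13.6% of all windows held at least 1. TAATTA was found in 0 of the 9 windows searched and in 5.29% of all windows. These are matches of letters and were not tested as sites. The shown Ghrl window held 0 matches to any of the 3 motifs, and the other Ghrl windows were not searched.

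Mboat4 (ENSMUSG00000071113), on the plus strand of chromosome 8 from 34115030 to 34125182, encodes the membrane enzyme that attaches the fatty acid to ghrelin. It had 3922 counts in the sorted library against 51 in the depleted library, or 322 [312 to 332] and 1.14 [0.846 to 1.49] normalised CPM. Mboat4 was therefore well above the floor in the sorted library and low in the depleted one. Its fold of 284 [215 to 382] was far above that of Ghrl, with no overlap of the intervals. For each 1000 counts of Ghrl there were 74.1 counts of Mboat4 in the sorted library and 2.49 in the depleted library, a ratio of 29.7 [22.5 to 39.98]. The RNAs of the hormone and of its enzyme thus stood in very different proportions in the 2 libraries. This ratio within a library does not depend on how the libraries are scaled. Sst, by contrast, had 163 counts per 1000 Ghrl counts in the sorted library against 191 in the depleted library, a ratio of 0.855 [0.821 to 0.891].

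Nucb2 (ENSMUSG00000030659), on chromosome 7, encodes nucleobindin 2, the precursor of nesfatin-1, which is made in ghrelin cells of the stomach but is also a calcium-binding protein of many other cell types. It had 1047 counts in the sorted library against 1106 in the depleted library, or 86.0 [80.9 to 91.4] and 24.6 [23.2 to 26.1] normalised CPM. Its fold of 3.49 [3.20 to 3.80] was below those of Ghrl and Sst, with intervals that did not overlap. Nucb2 had 19.8 counts per 1000 Ghrl counts in the sorted library against 54.1 in the depleted library.

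Gcg (ENSMUSG00000000394), on chromosome 2, encodes proglucagon, from which glucagon and the glucagon-like peptides are cut. It had 742 counts in the sorted library against 58 in the depleted library, or 60.9 [56.6 to 65.5] and 1.29 [0.981 to 1.67] normalised CPM. Its fold of 47.2 [36.1 to 62.7] lay between those of Ghrl and Mboat4, and its interval overlapped neither. Pyy (ENSMUSG00000017311), on chromosome 11, encodes peptide YY, which slows gut transit and lowers appetite. It had 118 counts in the sorted library against 1 in the depleted library, and the ratio of its levels was 435 [76.6 to 17330.4]. Pyy was thus clearly counted only in the sorted library, at 9.69 [8.02 to 11.6] normalised CPM, and with a single count in the depleted library its ratio is imprecise.

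The remaining hormones were near the limit of detection in both libraries. Iapp, the gene of amylin, had 13 counts in the sorted library against 14 in the depleted library, a fold of 3.42 [1.48 to 7.85]. Gast, the gene of gastrin, had 9 and 10 counts, a fold of 3.32 [1.19 to 9.09]. Both passed the rule on very few counts. Sct, the secretin gene, had 6 and 12 counts, a fold of 1.84 [0.568 to 5.31]. Gip, the gene of glucose-dependent insulinotropic polypeptide, had 3 counts in the sorted library against 30 in the depleted library, and the ratio of depleted to sorted was 2.71 [0.843 to 13.9]. A difference in Sct or Gip was not detectable at this depth. Gip was the only member whose level was nominally above that of the sorted library in the depleted one.

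**Figure D2:**
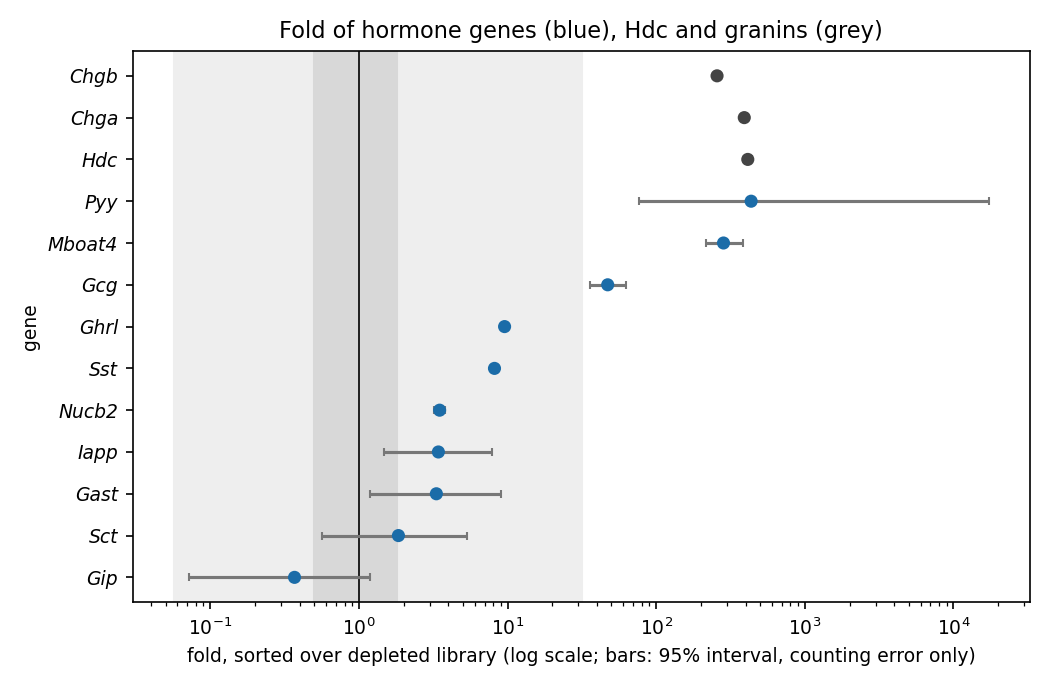
Fold of each gene, sorted over depleted library, on a log scale with exact 95% intervals for counting error (hidden where narrower than the point); blue points are the hormone genes and Mboat4, grey points Hdc, Chga and Chgb. Light and dark bands hold the middle 90% and 50% of all measured genes, bounded by folds of 0.0566 and 31.7 and of 0.499 and 1.79; Gcg, Mboat4 and Pyy lie to the right of both bands.

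Levels were compared between genes per kilobase of merged exons. On this scale Ghrl stood at 4030 normalised CPM per kilobase in the sorted library, Sst at 985, Mboat4 at 175, Gcg at 40.8, Nucb2 at 36.9 and Pyy at 15.4. The intervals of Gcg [37.9 to 43.8] and Nucb2 [34.7 to 39.2] overlapped, so these neighbours could not be ordered, while those of Ghrl, Sst, Mboat4 and Pyy were clear of their neighbours. Gast (1.61), Iapp (1.10), Sct (0.764) and Gip (0.359) followed with overlapping intervals. In the depleted library the order per kilobase began with Ghrl at 422, Sst at 121 and Nucb2 at 10.6 normalised CPM per kilobase. The intervals of these 3 genes were clear of each other. Gip (0.972), Gcg (0.865), Mboat4 (0.619), Gast (0.484), Sct (0.414) and Iapp (0.320) came next, each overlapping its neighbours in that order, and Pyy (0.0353 [0.000894 to 0.197]) was last, with an interval that reached that of Iapp [0.175 to 0.537]. Mboat4 and Gcg therefore ranked above or beside Nucb2 in the sorted library and far below it in the depleted library.

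Among the 8 hormone genes other than Nucb2, the make-up of the summed level was much alike in the 2 libraries. Per kilobase, Ghrl made up 79.4% of the sorted sum and 77.3% of the depleted sum. Sst made up 19.4% and 22.1%. The other 6 genes together were therefore minor in both. As plain shares of the 62490 hormone counts in the sorted library against 24481 in the depleted library, Ghrl held 84.7% [84.4 to 85.0] and 83.5% [83.1 to 84.0], and Sst 13.8% [13.6 to 14.1] and 16.0% [15.5 to 16.4], with exact binomial intervals. Gcg held 1.19% [1.10 to 1.28] and 0.237% [0.180 to 0.306] of the counts. Pyy held 0.189% [0.156 to 0.226] and 0.00408% [0.000103 to 0.0228]. Gip went the other way, with 0.00480% [0.000990 to 0.0140] in the sorted library against 0.123% [0.0827 to 0.175] in the depleted library. Shares within a library do not depend on the scaling between libraries.

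The hormone genes were next set against Chga, the gene of chromogranin A, a granule protein that gut endocrine cells share. Chga had 779149 counts in the sorted library against 7343 in the depleted library. Hdc had 137 counts per 1000 Chga counts in the sorted library against 130 in the depleted library, a ratio of 1.06 [0.987 to 1.13]. The proportion differed with the granule gene used: the ratio for Hdc, sorted over depleted, was 1.61 [1.47 to 1.76] against Chgb, the gene of chromogranin B, and 3.44 [3.22 to 3.67] against the summed counts of 9 granule genes (1.16 [1.08 to 1.24] without Ptprn2). Ghrl had 67.96 counts per 1000 Chga counts in the sorted library against 2785 in the depleted library, so that its proportion was 41.0 times as high in the depleted one [39.8 to 42.1]. The size depended on the granule gene used: it was 26.9 times [25.3 to 28.6] against Chgb and 12.6 times [12.3 to 12.8] against the 9 granule genes. Sst had 11.1 and 532 counts per 1000 Chga counts, 47.9 times as high in the depleted library [45.8 to 50.1], and 31.4 times [29.3 to 33.7] against Chgb and 14.7 times [14.1 to 15.3] against the 9 genes. Per kilobase, too, the order of these genes differed: in the sorted library Chga stood at 23216 and Hdc at 1370 normalised CPM per kilobase, above and below the 4030 of Ghrl, while in the depleted library Chga (59.3) and Hdc (3.31) were both below Ghrl (422) and Sst (121). Nucb2 went from 1.34 to 151 counts per 1000 Chga counts, 112 times as high in the depleted library [103 to 122]. It was 73.5 times [66.2 to 81.6] against Chgb and 34.4 times [31.6 to 37.5] against the 9 genes. Gcg went from 0.952 to 7.90 counts per 1000 Chga counts, which is 8.29 times as high in the depleted library [6.23 to 10.9]. For Gcg, too, the size was smaller against Chgb, at 5.44 times [4.06 to 7.16], and against the 9 genes, at 2.55 times [1.92 to 3.33].

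Mboat4 did not share this shift to the same degree. It had 5.03 counts per 1000 Chga counts in the sorted library against 6.95 in the depleted library, a proportion 1.38 times as high in the depleted one [1.02 to 1.82]. Set against Chgb, it was 0.905 times the proportion in the depleted library [0.669 to 1.20], an interval that includes 1. Against the summed counts of 9 granule genes the direction turned, at 0.424 times [0.315 to 0.559]. That sum was led in the depleted library by Ptprn2, a phosphatase-like granule protein with 18649 counts there. Slc18a2, which loads histamine into vesicles, was 1.35 times as high against Chga in the depleted library [1.23 to 1.48], and its direction turned too, at 0.885 times [0.796 to 0.983] against Chgb and 0.415 times [0.380 to 0.452] against the 9 genes. Pcsk1 and Cpe, which process hormone precursors, were 1.72 times [1.43 to 2.05] and 3.12 times [2.82 to 3.45] as high against Chga in the depleted library. Against Chgb they were 1.13 times [0.933 to 1.36] and 2.05 times [1.83 to 2.30] as high there. Against the 9 genes the values were 0.529 times [0.441 to 0.629] and 0.960 times [0.869 to 1.06]. Without Ptprn2 in that sum, Pcsk1 was 1.57 times [1.31 to 1.87] and Cpe 2.85 times [2.57 to 3.14] as high in the depleted library. On that sum Slc18a2 was 1.23 times [1.12 to 1.34] and Mboat4 1.26 times [0.934 to 1.66] as high there. Pyy, on 118 and 1 counts, stood at 0.151 and 0.136 counts per 1000 Chga counts. Its proportion was 0.899 times as high in the depleted library, with an interval too wide to give a direction [0.0226 to 5.11]. The proportions of the low genes Iapp and Gast to Chga were 114 times [49.8 to 264] and 118 times [43.0 to 328] as high in the depleted library. Those of Sct and Gip were 212 times [73.7 to 689] and 1061 times [330 to 5434] as high. Each of these 4 rests on 30 counts or fewer in each library, so their sizes are imprecise.

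**Figure D3:**
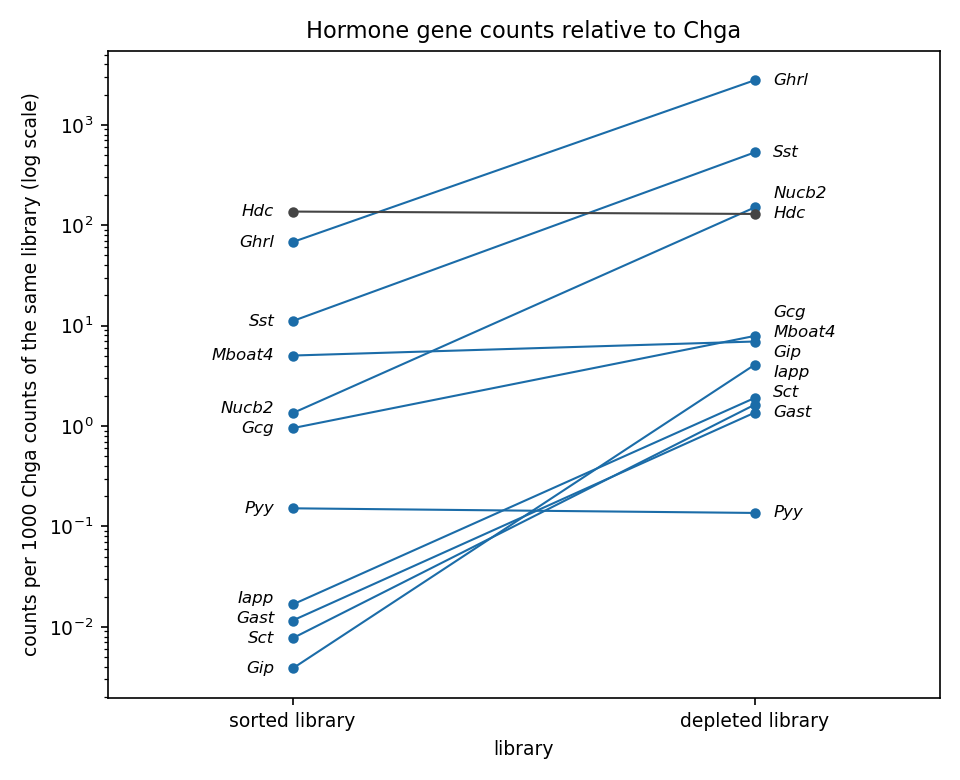
Counts of each gene per 1000 counts of Chga in the same library, on a log scale; each line joins the value of 1 gene in the sorted library (left) and the depleted library (right), blue for hormone genes and Mboat4, grey for Hdc. The lines of Hdc and Mboat4 are nearly level, while Ghrl goes from 67.96 to 2785 and Sst from 11.1 to 532. The line of Pyy rests on 1 count in the depleted library, so its slope is not known.

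The listed genes with the fold nearest to that of Ghrl were Gch1 (10.8 [9.69 to 11.98]), Sst and Irx2 (7.78 [6.85 to 8.86]). The comparison ran over 76 other listed genes with enough counts. Gch1 encodes an enzyme in the synthesis of a cofactor that tryptophan hydroxylase and other enzymes use. Irx2 is a homeobox factor known from glucagon cells of the pancreas. For Sst they included Irx2 and Ghrl. For Gcg they were Cckbr, the gastrin receptor (31.0 [28.4 to 33.9]), Ret, a growth factor receptor (75.1 [55.6 to 104]), and Pam, a peptide-amidating enzyme (28.9 [27.9 to 29.8]). With 2 libraries, likeness here means a similar fold and no more.

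Genes that turn hormone precursors into active peptides mostly had folds above 1, and of the 13 that were measured 8 passed as higher and 1 as lower (median log2 fold 2.99). Pcsk1 and Pcsk2 encode the prohormone convertases that cut these precursors in granules. Pcsk1 stood at 658 against 2.90 normalised CPM, a fold of 227 [191 to 272], and Pcsk2 at 25.7 against 1.29 normalised CPM, a fold of 19.9 [15.0 to 26.8]. Cpe, which trims the cut peptides, had a fold of 125 [114 to 138], and Scg5, a chaperone of convertase 2, one of 189 [166 to 215]. Cpd, a carboxypeptidase of the general secretory pathway, was the lower member, at 366 against 863 normalised CPM. Furin, the convertase of that pathway, was called neither way at a fold of 0.761 [0.730 to 0.792]. Pcsk1, Pcsk2 and Furin were named after their values were seen.

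Receptors of the member hormones were listed beside them. Of 21 receptor and receptor-associated genes 12 were measured, of which 8 were higher and 2 lower (median log2 fold 3.17). Ghsr, the ghrelin receptor, had 0 counts in both libraries, which allows up to 3 counts, or 0.246 normalised CPM in the sorted library against 0.0668 in the depleted library. Of the somatostatin receptors, Sstr2 stood at 128 against 20.2 normalised CPM (fold 6.32 [5.82 to 6.87]), Sstr3 had 354 against 5 counts (fold 261 [111 to 809]) and Sstr1 had 40 against 1. Sstr4 and Sstr5 were listed at 0 in both. Gipr, the GIP receptor, had a fold of 87.3 [54.6 to 149] and Gcgr, the glucagon receptor, one of 15.2 [6.89 to 38.1] on 33 and 8 counts. Sctr, the secretin receptor, was lower by 36.2-fold [25.6 to 52.9] in the sorted library and Glp1r, the GLP-1 receptor, 5.34-fold lower [4.26 to 6.80]. Cckbr and Cckar, which bind gastrin and cholecystokinin, stood at 392 against 12.6 and at 187 against 39.8 normalised CPM. All of these but Cckbr, Cckar, Sstr2 and Sctr were named after their values were seen.

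Transcription factors known from particular hormone cells did not share a direction. Of 14 measured factors 9 were higher, 2 lower and 3 neither (median log2 fold 3.32). Insm1 (fold 312 [235 to 423]) and Rfx6 (107 [79.3 to 148]) act in endocrine cells of many types. Hhex, a factor needed by somatostatin cells of the pancreas and also active in other cell types, had 16 counts in the sorted library against 261 in the depleted library and was 4.42-fold lower in the sorted one [2.67 to 7.85]. It thus lay on the other side of 1 from Sst. Pdx1 and Isl1, with folds of 0.817 [0.568 to 1.15] and 0.970 [0.803 to 1.16], were called neither way. Hhex, Pdx1 and Isl1 were named after their values were seen.

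Among 48 further peptide hormone and neuropeptide genes, 46 were found and 20 were measured. Of these, 8 were higher, 5 lower and 7 neither (median log2 fold 0.39). Agt, the angiotensinogen gene, reached 1094 against 6.66 normalised CPM (fold 164 [146 to 185]). Vgf, a granule protein that yields peptides, had a fold of 299 [234 to 389] and Pnoc, the nociceptin precursor gene, one of 181 [121 to 283]. Further genes of this list, higher on fewer counts, were Pomc (65 and 10 counts), Calca (26 and 1), Spx (26 and 10) and Guca2b (39 and 36). Ppy, the pancreatic polypeptide gene, had 21 counts in the sorted library against 0 in the depleted library. Its ratio was 25.8 with the depleted count set at the floor of 3 counts. The exact interval of its fold starts lower, at 19.2. Cck, a hormone of intestinal I cells, had 3 and 2 counts, and Tac1, a peptide gene of serotonin cells, 4 and 7. Vip and Nts were listed at 0 in both libraries, and Insl5, a hormone of colonic L cells, had 1 count in the sorted one. The genes on fewer counts were named after their values were seen.

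Gcg, Iapp, Ppy, Sst and Ghrl are also genes of pancreatic islets, so markers of the pancreas were read beside them. Of 16 islet genes 7 were measured, of which 5 were higher (Gc, Gcg, Irx2, Iapp and Ppy) and 1, Trpm5, lower. Their summed level was 2751 normalised CPM in the sorted library against 34.3 in the depleted library, most of it from Gc, the vitamin D-binding protein gene (2620 and 4.85 normalised CPM). Pdx1, also a factor of insulin cells, was the other measured gene and was called neither way, as given above. Several other genes of insulin cells were at the limit. Ins1, Ins2, G6pc2 and Mafa were listed at 0 in both libraries, Slc2a2 had 0 and 1 counts, and Nkx6-1 1 and 0. A listed 0 is not proof of absence in these files, since Tff1, a typical gene of surface mucous cells, was also at 0 in both. Of 28 pancreatic acinar genes 17 were measured, with 10 higher and 4 lower, and their median log2 fold was 6.09. Their summed level was 16461 against 5757 normalised CPM, but nearly all of the depleted sum came from Clps, the colipase gene, at 5502 against 5545 normalised CPM. Pnliprp1, a lipase-related gene, stood at 7603 against 35.7 normalised CPM (fold 213 [203 to 224]) and Cel, a lipase gene, at 1172 against 2.20 (fold 532 [436 to 655]). Their part in the hormone gene values was not tested.

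Markers of other cell types differed between the libraries as well. The summed level of 4 surface mucous genes was 3442 normalised CPM in the sorted library and 147672 in the depleted library, that of 9 parietal genes 2115 and 12056, and that of 7 macrophage genes 8.95 and 2737. The 5 chief cell genes, 3 of them lower and 2 neither, summed to 16437 and 65895 normalised CPM, most of it from Pgc, a pepsinogen gene (15187 and 60505). Of the 10 measured mast cell genes 7 were higher, and they summed to 298 and 112 normalised CPM. All 7 measured enterochromaffin cell genes were higher, and the most abundant was Ddc at 771 against 7.26 normalised CPM. Tph1, a tryptophan hydroxylase gene, stood much lower, at 26.2 against 1.94 normalised CPM (fold 13.5). Of 11 neuron and glia genes, 6 were measured and all 6 were higher, while Sox10, Nefl and Prph were listed at 0 in both libraries. Their part in the hormone gene values was not tested.

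**Figure D4:**
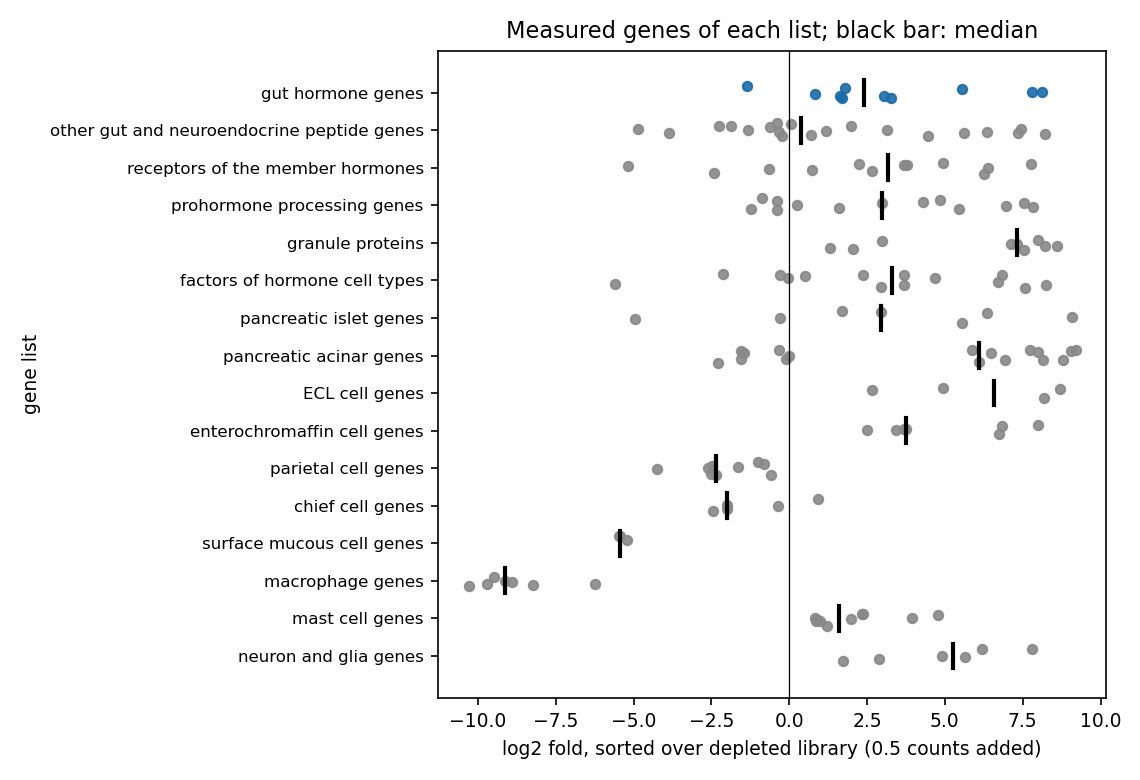
Log2 fold (sorted over depleted library, 0.5 counts added) of every measured gene of each list, 1 point per gene, with the list's median as a black bar and hormone genes and Mboat4 in blue. The hormone genes spread from Gip on the left of 0 to Mboat4 at the right, while granule protein genes are all to the right of 0 and macrophage genes all to the left.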

How the data were processed

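The sources of this section are the labels, the submitters' processing notes and the count files. Reads of 2 libraries, 1 per group, were aligned with TopHat2 2.0.07 to mm9 and counted with HTSeq by the authors, per the submitters' processing notes. The sources used here do not give the HTSeq version, strand setting or annotation release. RNA was column-purified and libraries were made with a TruSeq RNA kit, per the labels. The deposited unit is the raw count of reads for each Ensembl gene. The 5 rows that name no gene were left out; among them, 24.2% of sorted and 34.3% of depleted alignments were not unique.

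Symbols came from GENCODE M21 (32642 of 37681 identifiers) and 202 of 204 listed genes were found. Its build, GRCm38, is not that of the counts, so coordinates and lengths describe GRCm38 only. In M21 0% of the 50-base words of any member occur in another gene. Genes on the opposite strand overlap Ghrl, Mboat4 and Iapp; of these only Slco1a5, over Iapp, was counted, with 0 and 2 counts.

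Scaling used edgeR 4.0.16 (R 4.3.3) TMM factors over measured genes, 1.13 (sorted) and 0.882 (depleted). Intervals are exact (Clopper-Pearson or Poisson, 95%), computed with scipy 1.17.1. The interval of a ratio within a library adds the counting error of the reference gene on the log scale. List medians had 0.5 counts added in proportion to library size. Folds and intervals were run on simulated Poisson counts scaled by library totals, with 200 of 20392 genes changed. The intervals assume the same model, so this checked the computation and not how well the model describes these libraries. No test between groups was possible with 1 library each. Alternatives were other scalings (DESeq2 1.42.0 among them), count minimums, call rules, length scales and reference genes. Genes named were the members, up to 4 genes of each list with the highest level, the 3 listed genes nearest in fold to Ghrl, Sst and Gcg, and others said to be chosen after their values were seen. Some genes that this rule names are not reported here. The members and lists were chosen with earlier results of these data known.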

Additional observations from a re-analysis of the deposited data

How the results depend on the processing

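With 1 library per group nothing here speaks of variation between animals or sorts, and 4 of the 10 genes rest on 30 counts or fewer in each library. No paired analysis was possible because each group had 1 library. The count of 8 higher genes stayed at 8 under 5 other scalings and with no count minimum, was 6 with a minimum of 100 counts or with intervals that end beyond 2-fold, and was 5 with a fold of at least 4, where 13.8% of all measured genes were higher; the count of lower genes was 0 throughout. The fold of Ghrl was 12.3 with library totals, 9.82 with upper-quartile factors, 11.1 without the 20 most abundant genes and 8.84 with TMM over every identifier, the last chosen after seeing the data. That of Sst was 10.5 with totals, 9.46 without the 20 most abundant genes and 7.56 with TMM over every identifier. Over these scalings no member's fold was more than 1.29 times its value under TMM. The share of Ghrl in the hormone level was 84.7% in the sorted library against 83.5% in the depleted library with no length scaling, 82.1% and 80.4% with the longest transcript, and 78.8% and 75.9% with Nucb2 in the sum. That of Sst was 13.8% and 16.0% with no length scaling, and 16.6% and 19.0% with the longest transcript. The ratio of Ghrl to granule genes, sorted over depleted, was 0.0244 against Chga, 0.0794 against the granule list, 0.0372 against Chgb, and, added after seeing the data, 0.0231 against Hdc and 0.0268 against the granule list without Ptprn2. For Sst these were 0.0209, 0.0679, 0.0318, 0.0198 and 0.0229. The ratio of Mboat4, 0.725 against Chga, turned to 2.36 against the granule list and 1.10 against Chgb; the list's sum moves with Ptprn2, without which it was 0.795.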

Other observations

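In total 5 peptide genes of the wider list were lower in the sorted library. Adm, the adrenomedullin gene, stood at 2.22 normalised CPM in the sorted library against 32.6 in the depleted library, 14.7-fold lower in the sorted one [10.1 to 22.4]. Edn1, the gene of the vessel-constricting peptide endothelin 1, was 30.6-fold lower [11.9 to 113], with 4 counts in the sorted library. Pthlh, of the parathyroid hormone family, was 3.70-fold lower [2.50 to 5.69] and Npw, the neuropeptide W gene, 2.52-fold lower [2.02 to 3.18]. Guca2a, the guanylin gene, had 3 counts against 56, and its level ratio, depleted over sorted, was 5.06 [1.65 to 25.3]. All of these but Adm were named after their values were seen.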
